A study of Rattus norvegicus with 18 samples.

Results

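The chemokine genes Ccl2, Ccl3, Ccl4, Cxcl2, Cxcl10 and Cxcl16 and the chemokine receptor genes Cxcr5 and Cxcr4 were followed through 18 RNA-seq libraries of rat oligodendrocyte progenitor cells (OPCs), the dividing precursors of the myelin-forming cells of the central nervous system. The 8 genes were picked by name, and all 8 were found, with 1 transcript model each, among the 17337 genes of the files. They and the gene lists below were chosen with earlier results of these data known. The shares of all genes printed beside their counts are therefore a background and not a test of a set. The libraries form 6 groups of 3: aged and neonate cells as primary cells after magnetic (MACS) sorting, and aged and neonate cells cultured on soft or on stiff hydrogels coated with laminin. The age of the primary libraries is given only by the letter of their titles, the growth text shared by all samples names FGF and PDGF as culture factors, and no genotype, strain, sex, age in days or gel stiffness value is given in the sources used here. Nothing states that replicates came from separate animals or cultures. The p-values set differences between group means against the spread among libraries within groups, pooled over the 6 groups. That spread may be only technical.

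Chemokines are small secreted proteins that steer migrating cells through seven-transmembrane receptors coupled to G proteins. Ccl3 and Ccl4 (macrophage inflammatory proteins 1 alpha and 1 beta) act on receptors of the CC class, Ccl3 among others on Ccr1, and in the brain they are known as products of stimulated microglia and macrophages. Ccl2 recruits monocytes through Ccr2, Cxcl2 recruits neutrophils through Cxcr2, Cxcl10 is an interferon-inducible ligand of Cxcr3, and Cxcl16 is a membrane-anchored ligand of Cxcr6. Cxcr5, best known from B cells and follicular helper T cells, binds Cxcl13, while Cxcr4 binds Cxcl12 and is known to act in the migration of neural precursors.

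Ccl3 was the most abundantly read of the 8 genes and was high in every aged library and low or listed at 0 in every neonate library. On the gels, Ccl3, Ccl4, Cxcl2 and Cxcr5 were higher in aged than in neonate cells. In primary cells Cxcr5 alone of the 8 passed the test between the ages, from 93.5 to 462 scaled TPM in aged libraries against 0 in all 3 neonate libraries. Neonate cells had less Ccl3 on gels than as primary cells, and none of the 8 genes differed detectably between soft and stiff gels.

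The promoters of an inducible ligand that differed between the ages on gels (Cxcl2) and of one that did not pass any test (Cxcl10) are shown because ligands of this kind are textbook targets of the inflammatory transcription factor NF-kB. Promoter sequences of 4 of the 8 genes (Cxcl2, Cxcl10, Cxcl16 and Cxcr4) were found in the RefSeq table of build GRCr8. The 250 bases before the annotated start are printed 5′ to 3′ on the gene's strand, and capitals mark matches to the NF-kB consensus, to the core of the interferon-stimulated response element (GAAA, any 2 bases, GAAA) or to TGANTCA (the AP-1 site, which reads nearly the same on both strands), each searched on both strands.
Cxcl2, chr14:17467256-17467505, minus strand: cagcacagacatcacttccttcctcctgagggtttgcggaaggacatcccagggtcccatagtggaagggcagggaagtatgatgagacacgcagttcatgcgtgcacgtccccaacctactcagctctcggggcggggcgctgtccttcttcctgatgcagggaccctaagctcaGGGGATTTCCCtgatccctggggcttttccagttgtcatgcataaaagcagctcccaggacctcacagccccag
Cxcl10, chr14:15988816-15989065, plus strand: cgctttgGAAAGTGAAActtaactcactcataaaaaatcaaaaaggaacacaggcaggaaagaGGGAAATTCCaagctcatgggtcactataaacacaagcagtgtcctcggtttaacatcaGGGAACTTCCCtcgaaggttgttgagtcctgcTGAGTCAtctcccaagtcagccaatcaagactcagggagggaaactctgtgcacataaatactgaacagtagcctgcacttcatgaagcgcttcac
In Cxcl2 the NF-kB match spans bases 74 to 64 before the start, where matches on the 2 strands overlap. In Cxcl10 NF-kB matches lie at bases 187 to 178 and, overlapping on the 2 strands, at 128 to 118. The interferon-stimulated match of Cxcl10 lies at 243 to 234 and its AP-1 match at 96 to 90. The promoters of Cxcl16 and Cxcr4 held none of the 3 motifs in this window. Among 33469 promoters of the same length, 6.33% held the NF-kB consensus, 3.41% the interferon-stimulated core and 6.34% TGANTCA. These are matches of letters, not sites shown to be used in these cells.

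Levels are given as scaled TPM, the deposited TPM (a share of all transcripts that accounts for length) divided by a factor per library, so that levels can be compared between genes per length. The depth was low: coverage over the annotated genes amounted to 33939 to 141883 read pairs per library, of which 22200 to 105647 lay outside 7 ribosomal RNA features. The first library of each aged group stood apart in breadth, with 54.7 to 77.2% of 1197 olfactory receptor genes above 0 against 0.251 to 39.2% in the other 15 libraries, and each call among the 8 genes is therefore also given without these 3, while for the gene lists the calls lost without them are named. OPC markers (13 genes) were detected in all groups, with summed levels of 176 to 244 scaled TPM in aged primary, 952 to 1061 in neonate primary, 102 to 670 in aged gel and 1278 to 2010 in neonate gel libraries. Pdgfra, the receptor that defines OPCs, was listed at 0 in 2 of 3 aged primary libraries. Microglia markers (18 genes) summed to 3171 to 5530 in aged primary, 179.6 to 287 in neonate primary, 293 to 1047 in aged gel and 40.3 to 185 in neonate gel libraries. Their part in the results below was not tested, and in bulk libraries fewer cells of a type and less RNA per cell cannot be told apart.

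All 8 genes passed the filter of a TPM of 1 or more in 3 libraries or more, but on little data for some. Over the 18 libraries Ccl3 was backed by 338 read-pair equivalents (coverage times model length divided by 300 bases), Cxcr5 by 119, Ccl4 by 92.4, Cxcr4 by 63.8, Cxcl16 by 57.6 and Cxcl2 by 46.3. Ccl2 rested on 9.53 and Cxcl10 on 5.96 in all. Differences below are in log2(scaled TPM + 1) from limma, with Benjamini-Hochberg adjusted p over 15144 genes tested, and 0.05 as the threshold. Where a group is at 0 the fitted difference depends on the added 1 and is no bound on the fold. Such a group also adds no spread to the pooled estimate, so the SE and the p-value depend on detection too.

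Ccl3 (chromosome 10, 70869516 to 70871066 on the minus strand of rn6, 3 exons) stood at 461, 658 and 629.6 scaled TPM in aged primary libraries and at 44.6, 106 and 78.4 in neonate primary libraries. On soft gels aged libraries read 272, 569 and 414, and neonate libraries 0, 0 and 33.9. On stiff gels aged libraries read 537, 724 and 293, and all 3 neonate libraries were listed at 0. All 9 aged libraries thus lay above all 9 neonate libraries. How many of all genes tested showed the same was not counted. The order of the group means was aged primary (583 ± 106, SD, n = 3), aged stiff (518 ± 216), aged soft (418 ± 149), neonate primary (76.4 ± 30.9), neonate soft (11.3 ± 19.6) and neonate stiff (0), and the 3 aged groups overlapped one another.

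Between the ages on gels Ccl3 was higher in aged cells by 7.93 (SE 0.62, adjusted p = 3.54e-09, limma), and without the 3 broad libraries by 8.07 (adjusted p = 7.14e-06). In primary cells the aged mean was 7.63 times the neonate mean, a difference of 2.98 (SE 0.88) whose adjusted p of 0.0674 missed the threshold. The primary values did not overlap, as was the case with aged above neonate for 11.1% of all genes tested. Limma voom on the read-pair equivalents called the primary difference (adjusted p = 9.73e-05), while the 11 other alternatives run did not, with adjusted p up to 0.407.

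Ccl3 fell in neonate cells from primary to gels by 5.33 on the log2 scale (SE 0.76, adjusted p = 8e-04), with all 6 gel libraries below all 3 primary libraries, and without the 3 broad libraries, none of them neonate, the adjusted p was 0.00827. The neonate primary mean was 13.5 times the neonate gel mean, which rests on 1 library above 0. Floors of 3 read pairs in the neonate gel libraries were 26.5 to 61.4 scaled TPM, a range that holds the lowest primary value, 44.6. In that comparison 0.099% of all genes tested were called, 0.0594% as lower on gels, and 2.4% had all gel libraries below all primary ones. Aged cells showed a difference of -0.39 (SE 0.76, adjusted p = 0.952, 95% interval -1.94 to 1.17) in the same comparison. The difference between these 2 changes was 4.95 (SE 1.07), with an adjusted p of 0.0696 that missed the threshold. It passed without scaling (0.0182) and without replicate 3 of the neonate soft group (0.000136), the only neonate gel library with any Ccl3 coverage, at 1.91 read-pair equivalents.

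Ccl4, the neighbour of Ccl3 (chromosome 10, 70884595 to 70886067 on the plus strand, 3 exons), has a model of only 279 bases, so that 1 read pair was worth 16 to 75.0 scaled TPM. Aged primary libraries held 573, 878 and 671 scaled TPM and neonate primary libraries 20.1, 0 and 200.3. Aged soft libraries held 197, 188 and 207, aged stiff libraries 197, 45.8 and 0, and of the 6 neonate gel libraries a single stiff one was above 0, at 29.9. The aged soft values were close together, while the aged stiff values ran from the level of the soft ones down to 0.

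On gels Ccl4 was higher in aged cells by 5.19 (SE 1.08, adjusted p = 0.00346, limma), and without the 3 broad libraries by 4.40 (adjusted p = 0.0465). The aged gel mean of 139 scaled TPM lay within the floors of 3 read pairs of the neonate gel libraries, 71.5 to 166. The size of the fold is thus hardly bounded, and the aged stiff value of 45.8 rested on 0.611 read-pair equivalents. In primary cells the difference of 5.43 (SE 1.52) had an adjusted p of 0.0515 and missed the threshold. The groups did not overlap there, as was the case with aged above neonate for 11.1% of all genes tested. The Ccl4 difference moved with single neonate primary libraries: without replicate 3 the difference was 7.22 (adjusted p = 0.0125), and without replicate 2 it was 3.4 (adjusted p = 0.412). Voom also called it (0.000274), as did the fit with the replicate number as a block (0.0454). All 6 aged gel libraries lay below all 3 aged primary libraries, as for 2.93% of all genes, but the difference of -3.43 (SE 1.32) had an adjusted p of 0.313 in limma and passed only under voom (0.00192).

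Cxcl2 (chromosome 14, 18731346 to 18733391 on the minus strand, 4 exons) read 34.9, 53.8 and 27.1 scaled TPM in aged primary libraries. Neonate primary libraries read 0, 0 and 38.0. Aged soft libraries read 88.3, 72.2 and 23.1, aged stiff libraries 13.2, 165 and 10.7, and all 6 neonate gel libraries were listed at 0. Every aged library was thus above 0, as was 1 of 9 neonate libraries. In aged stiff replicates 1 and 3 this rested on 0.957 and 0.980 read-pair equivalents, each less than 1 pair. On gels Cxcl2 was higher in aged cells by 5.33 (SE 0.84, adjusted p = 0.000146, limma), and without the 3 broad libraries by 5.46 (adjusted p = 0.00306). Against a floor of 3 read pairs per neonate library the aged gel mean was at least 2.07-fold higher, and at least 1.38-fold without aged stiff replicate 2, which read 165. In primary cells the difference of 3.49 (SE 1.19) had an adjusted p of 0.141. Without replicate 3 of the neonate primary group, the one with Cxcl2 in its group, the difference was 5.21 (adjusted p = 0.0157), and without replicate 1 or 2 it was 2.58 or 2.57 (adjusted p = 0.493 and 0.559).

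**Figure D1:**
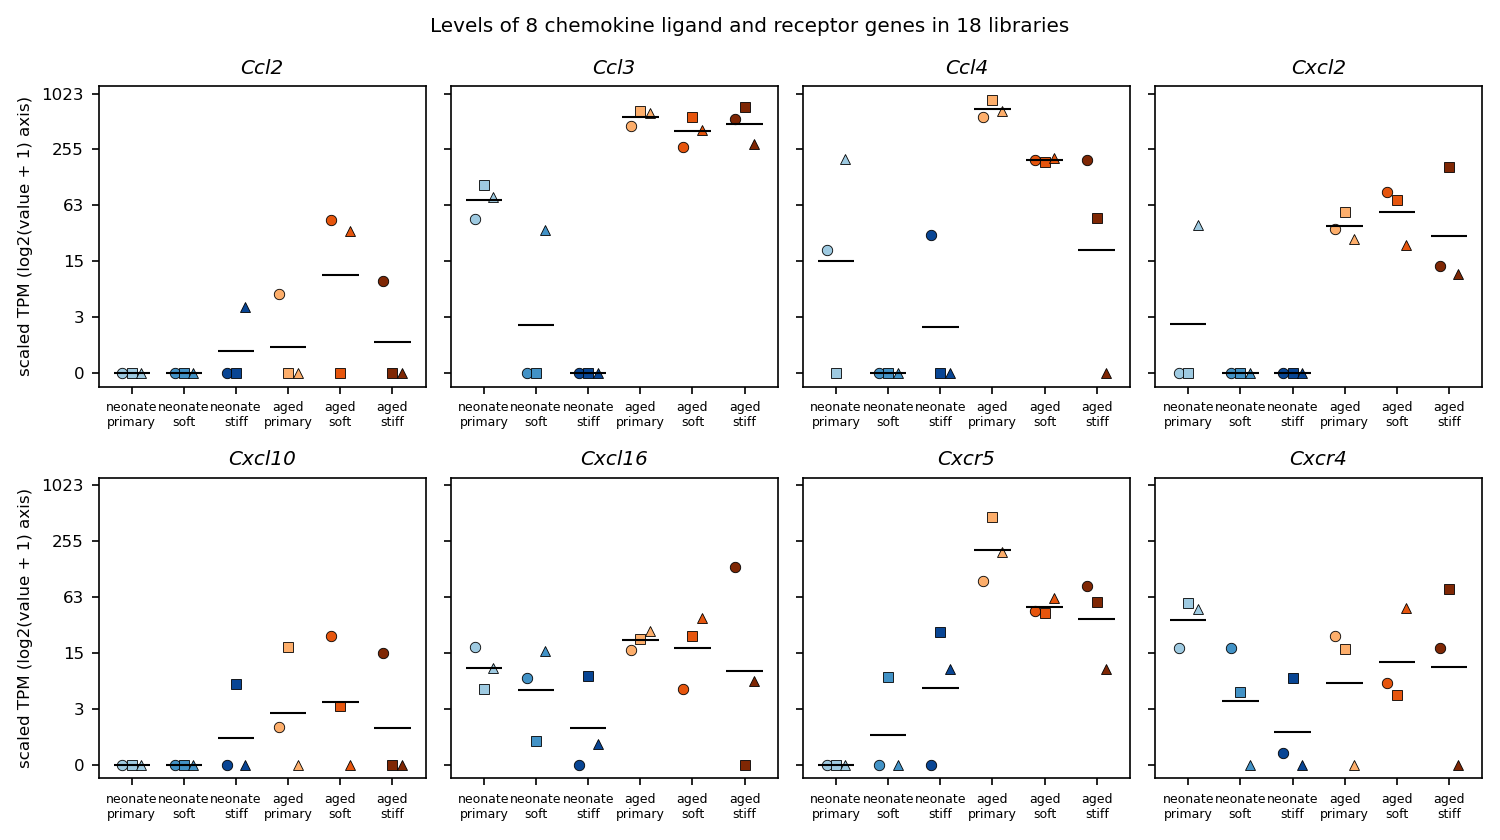
Scaled TPM of the 8 genes (vertical axis, spaced as log2(value + 1)) in each of 18 libraries by group, with circles, squares and triangles for replicates 1, 2 and 3 and a bar at the group mean on the log scale (n = 3). Ccl3 lies between 272 and 724 in all aged libraries and at or below 106 in all neonate libraries.

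Ccl2 (chromosome 10, 69412065 to 69413863 on the plus strand) was above 0 in 5 of 18 libraries: 43.3 and 33.0 in 2 aged soft libraries, 8.82 in an aged stiff, 6.09 in an aged primary and 4.18 in a neonate stiff library. The 2 aged soft values rested on 2.52 and 5.78 read-pair equivalents and each of the other 3 on less than 1. Its differences between the ages were 0.94 (adjusted p = 0.77) in primary cells and 1.91 (adjusted p = 0.206) on gels. No difference of Ccl2 was detectable at this depth.

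Cxcl10 (chromosome 14, 17210733 to 17212930 on the plus strand) lies within the span of Art3 on the other strand. It was above 0 in 6 libraries, at 1.57 and 17.5 in aged primary, 23.0 and 3.26 in aged soft, 14.8 in aged stiff and 6.44 in neonate stiff libraries. Both other neonate groups were listed at 0 throughout, against floors of 3 read pairs of 15.2 to 35.5 scaled TPM. The age differences were 1.86 (adjusted p = 0.661) in primary cells and 1.29 (adjusted p = 0.382) on gels, so none was detectable.

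Cxcl16 (chromosome 10, 57060005 to 57064600 on the minus strand, 5 exons) was detected in 16 libraries. It read 16, 21.5 and 26.2 scaled TPM in aged primary and 17.4, 5.6 and 10.05 in neonate primary libraries. Aged gel libraries spread from 0 to 134, the highest being the broad aged stiff library, and neonate gel libraries from 0 to 15.8. The groups overlapped, and the age differences of 0.99 (adjusted p = 0.754) in primary cells and 1.79 (adjusted p = 0.225) on gels did not pass. An exon of Cxcl16 shares 119 bases with Zmynd15 on the other strand, whose level was 68.4 to 156 in aged primary and 1.16 to 8.02 in neonate primary libraries, and 121 to 426 in aged gel and 2.07 to 10.3 in neonate gel libraries. Coverage of Cxcl16 also lay on exons outside the overlap, as the plot of exon coverage shows.

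Cxcr5 (chromosome 8, 48837114 to 48838222 on the minus strand, a single exon of 1109 bases) read 93.5, 462 and 193 scaled TPM in aged primary libraries and was listed at 0 in all 3 neonate primary libraries. Aged soft libraries held 44.2, 41.4 and 61.5, and aged stiff libraries 83.3, 55.1 and 9.78. Neonate soft libraries held 0, 7.80 and 0, and neonate stiff libraries 0, 26.0 and 9.80. The aged values were high in primary cells and lower, though above 0 in every library, on gels, where the lowest aged stiff library sat among the neonate ones.

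In primary cells Cxcr5 was higher in aged cells by 7.67 (SE 1.08, adjusted p = 0.000112, limma), and without the 3 broad libraries by 8.27 (adjusted p = 0.00179). Against a floor of 3 read pairs per neonate library the aged mean was at least 10.9-fold higher, and at least 6.28-fold without aged primary replicate 2, the library at 462. It was the only one of the 8 genes called in that comparison, in which 2.6% of all genes tested were called and 1.94% were called higher in aged cells. On gels the aged mean was 6.77 times the neonate mean. With single libraries left out this ratio ran from 5.64 to 14.0, the highest without neonate stiff replicate 2, the library at 26.0. The difference of 3.53 (SE 0.76) passed the test (adjusted p = 0.00505) and was 3.29 without the 3 broad libraries (adjusted p = 0.0334). From primary cells to gels, aged Cxcr5 differed by -2.25 (SE 0.93, adjusted p = 0.375), which passed under voom only (0.0119). All 6 gel libraries lay below all 3 primary ones, as for 2.93% of all genes tested. The difference between the age effects in the 2 settings was -4.14 (SE 1.32, adjusted p = 0.483), called by voom only (0.0464).

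Markers of B cells and T cells were measured beside Cxcr5, and their part in its level was not tested. Of 8 B cell genes counted from the files, none of them Cxcr5, 7 were tested, and none passed in the 6 pairwise comparisons or the 2 interactions. At most 5.55% of all genes tested were called in any of these, so the absence of calls among 7 genes is uninformative. The summed level of the B cell genes was 11.1 to 72.4 scaled TPM in aged primary and 0 to 29.4 in neonate primary libraries. Ms4a1 was listed at 0 in all 3 aged primary libraries, Cd79b was above 0 in 1 of 3, Pax5 in 2 of 3 (3.90 and 5.58), and Cd22 read 7.81 to 10.1, while these 4 genes were at 0 in all neonate primary libraries. Other genes of the list did not share that split. They alone gave the B cell sums of 29.4 and 11.2 in neonate primary replicates 1 and 2. In aged primary replicate 1 the sum was 72.4, with Cd79b at 10.4, Cd22 at 10.1 and Pax5 at 3.90. In the aged primary library with 462 scaled TPM of Cxcr5, the B cell sum was 11.1, with Cd22 at 7.81 and Cd79b, Ms4a1 and Pax5 at 0. T cell markers (10 genes, 8 tested) summed to 60.4 to 119 in aged primary and 17.2 to 22.7 in neonate primary libraries, and to 20.2 to 146 in aged gel and 1.82 to 9.72 in neonate gel libraries. The T cell list had 1 call, Cd4, which rat macrophages and microglia also carry, higher in aged cells on gels (3.93, adjusted p = 0.000128). Of all genes tested, 3.8% were called higher there. Cxcl13, the ligand of Cxcr5, was above 0 in 2 libraries, both of aged cells on gels, and was not tested.

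Cxcr4 (chromosome 13, 45314952 to 45318856 on the minus strand, 2 exons) was alone among the 8 genes in having its highest group mean in a neonate group, though none of its comparisons passed. Its highest group mean was in neonate primary cells (39.0 ± 19.5, SD, n = 3), at 17.1, 54.1 and 45.9 scaled TPM, against 23.1, 16.7 and 0 in aged primary libraries. Gel libraries held 6.52, 4.62 and 48.1 in aged soft, 17.2, 76.9 and 0 in aged stiff, 17.1, 5.08 and 0 in neonate soft and 0.334, 7.50 and 0 in neonate stiff cells. The groups overlapped, and the age difference was -2.26 (adjusted p = 0.591) in primary cells and 1.87 (adjusted p = 0.252) on gels. From primary cells to gels, neonate Cxcr4 differed by -3.46 (SE 1.23, adjusted p = 0.655, 95% interval -5.97 to -0.94), which missed the threshold.

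Across the 8 genes, 4 were called higher in aged cells on gels (Ccl3, Ccl4, Cxcl2 and Cxcr5), where 5.55% of all genes tested were called and 3.8% were called higher. The 8 were chosen with earlier results known, so the contrast with these shares is not a test of the set. Ccl3 and Cxcl2 had no overlap between the ages on gels, a pattern with aged above neonate that 1.74% of all genes tested showed. For Cxcl2 the separation hung on aged stiff values of 13.2 and 10.7 scaled TPM, on 0.957 and 0.980 read-pair equivalents. Both values lay below the floors of 3 read pairs of the neonate gel libraries, 18.1 to 42.0 scaled TPM. The median gene was itself higher in aged libraries, by 0.69 in primary cells and by 0.71 on gels. Above that median Ccl3 was higher on gels by 7.22, Cxcl2 by 4.63, Ccl4 by 4.48 and Cxcr5 by 2.82, and in primary cells Cxcr5 was higher by 6.98.

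**Figure D2:**
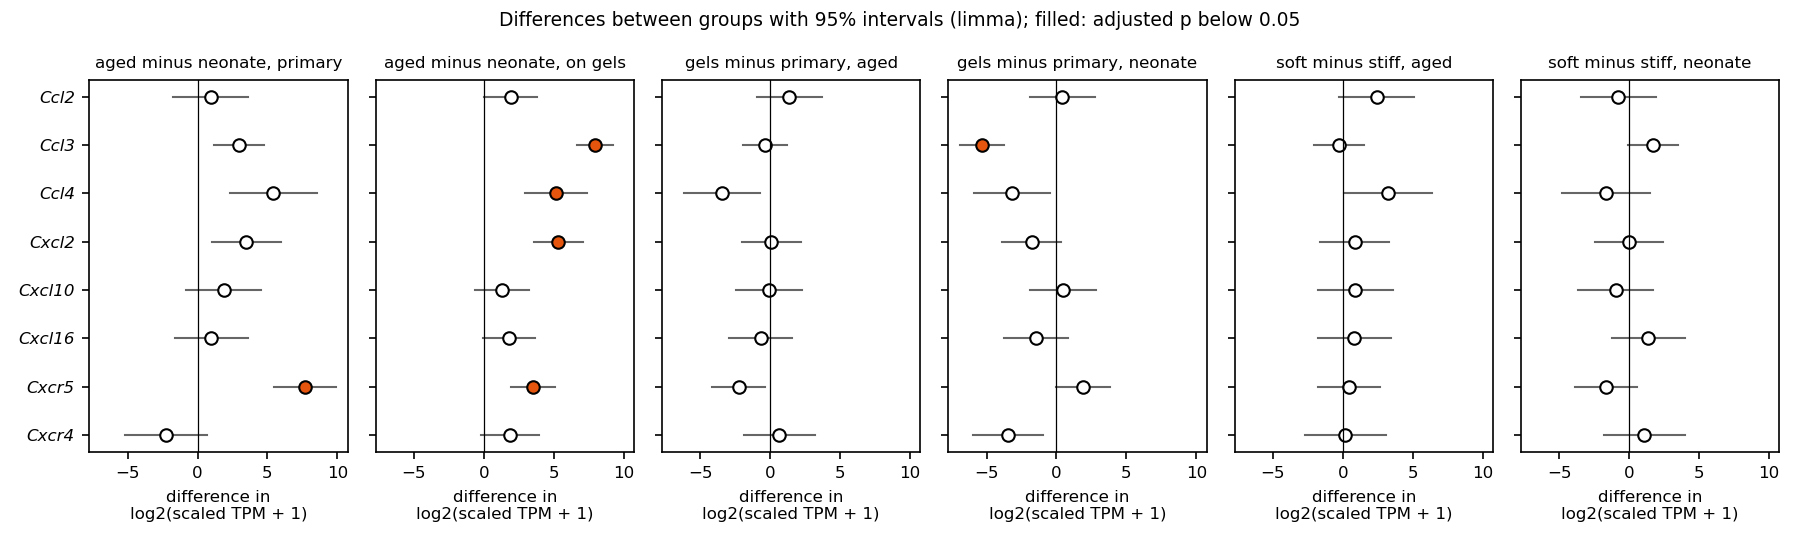
Differences in log2(scaled TPM + 1) for the 8 genes in 6 comparisons (points, with 95% intervals from limma as lines), filled where the adjusted p was below 0.05. Filled points stand at Cxcr5 for primary cells, at Ccl3, Ccl4, Cxcl2 and Cxcr5 for gels, and at Ccl3 for neonate gels against primary cells.

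From primary cells to gels, none of the 8 genes was called in aged cells, where 1.11% of all genes tested were, and Ccl3 alone was called in neonate cells. Between soft and stiff gels none of the 8 was called in aged cells (adjusted p 0.44 to 0.989), where 0.0792% of all genes tested were. Ccl4 had the widest such difference in aged cells, 3.24 (SE 1.52, 95% interval 0.11 to 6.37), and the interval for Ccl3 was -2.07 to 1.52. In neonate cells limma called 0 of all genes tested between soft and stiff gels (0%), with 438 at an unadjusted p under 0.05 and 6 called by voom. Intervals several log2 units wide mean that a stiffness difference of the 8 genes was not detectable here, not that it was absent. The age by stiffness interaction was called for none of the 8 (adjusted p 0.935 to 1), with 0.0066% of all genes tested called. In the age by culture interaction, where 0.112% were called, none of the 8 passed.

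Coverage along the exons showed what the levels of the called genes rest on. Ccl3 was covered on all 3 exons in each of the 9 aged libraries, with a mean of 46.0 reads per base on its second exon (112 bases) and of 13.2 and 12.5 on exons 1 and 3 in aged primary libraries. Ccl4 was covered on all 3 exons in aged primary libraries and on none in 1 of 6 aged gel libraries, and its last exon had no coverage in any aged stiff library. Cxcl2 was covered on its first and second exons (149 and 124 bases) in each of the 9 aged libraries, at a mean of 2.05 and 7.68 in primary and 3.25 and 6.90 on gels. Its last exon of 747 bases had a mean of 0.00714 in aged primary and 0.0654 in aged gel libraries and was covered in 1 library of each. Cxcl2 has relatives, Cxcl1 and Cxcl3, whose sequences were not compared here. Whether the deposited counting moved reads between these genes was not tested, so the level of Cxcl2 is uncertain. Cxcl3 read 26.0, 0 and 0 in aged primary, 18.1, 45.1 and 15.3 in aged soft and 0, 34.0 and 0 in aged stiff libraries. Cxcr5 and nearly all of Cxcr4 were read on 1 exon each, where spliced and unspliced RNA cannot be told apart.

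**Figure D3:**
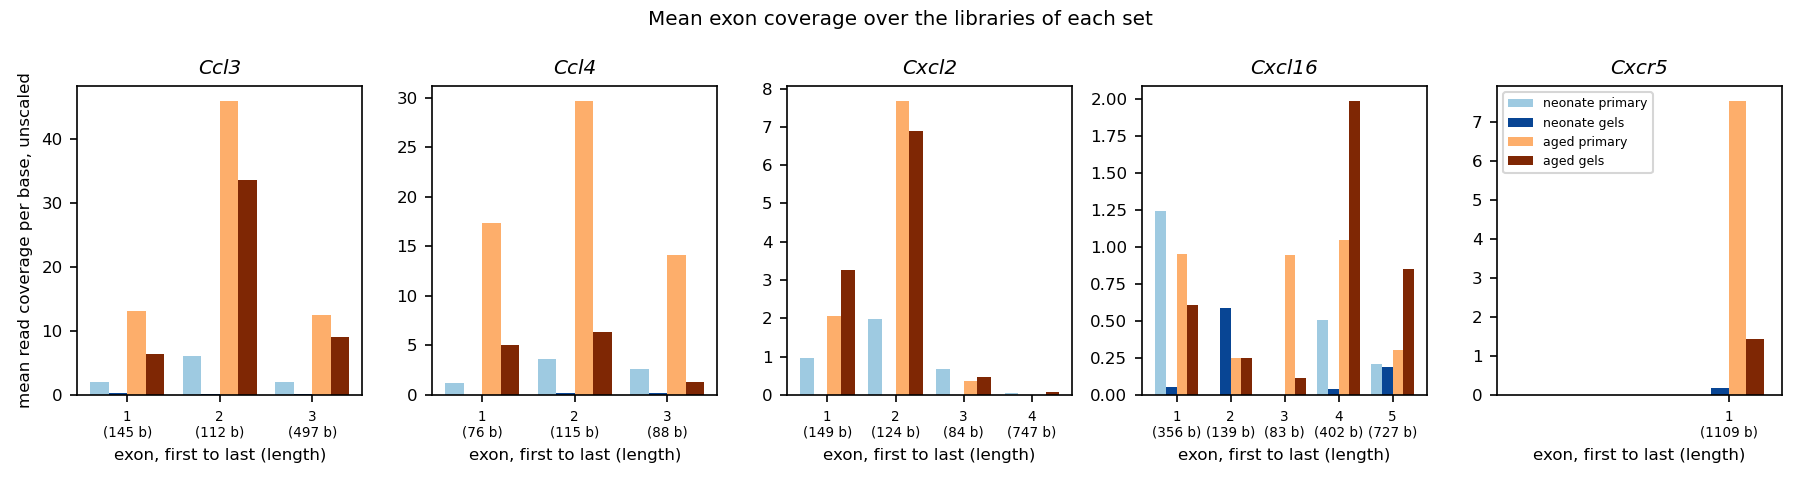
Mean read coverage per base (not scaled for depth) on each exon of 5 genes, numbered from the first to the last transcribed with lengths in bases, as bars for neonate primary, neonate gel, aged primary and aged gel libraries (n = 3, 6, 3 and 6). Ccl3 and Ccl4 are covered on all exons in aged primary cells, and Cxcl2 almost only on its first and second.

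The wider chemokine family gave the setting of these values, as 36 ligand and 18 receptor genes counted from the files, of which 28 and 17 were tested. The lists include the 8 genes. On gels 5 ligands were higher in aged cells and none was lower: Ccl3, Cxcl2, Ccl4, Ccl6 (4.74, adjusted p = 0.00351) and the platelet and macrophage chemokine Pf4 (4.54, adjusted p = 0.0229). Without the 3 broad libraries Pf4 was no longer called (3.81, adjusted p = 0.118). Ccl6 rested on only 0 to 1.94 read-pair equivalents per aged gel library, so the size of its difference is uncertain. Of all genes tested, 3.8% were called higher in that comparison. In primary cells none of the 28 ligands was called between the ages in limma. The median difference of the ligands was 0.98 in primary cells and 1.18 on gels, against 0.69 and 0.71 for all genes.

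Ccl3 and Ccl4 together made up 74.9 to 92.4% of the summed scaled TPM of all 36 ligands in aged primary libraries, where that sum was 1381 to 1662. In neonate primary libraries they made up 60.3 to 85.2% of a sum of 107 to 396. On gels their share in aged cells was 40.1 to 74.8% of 444 to 1306, and the neonate sum was 8.36 to 83.7. The aged ligand level was thus carried mainly by these 2 genes in primary cells, and other ligands took up more on gels, although the lowest aged primary share and the highest aged gel share were nearly equal.

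Among the 17 receptors tested 4 were higher in aged than in neonate primary cells, against 1.94% of all genes: Cxcr5, the atypical receptor Ccrl2 (5.07, adjusted p = 0.0148), Ccr6 (5.30, adjusted p = 0.0187) and Cx3cr1, the fractalkine receptor of microglia (4.93, adjusted p = 0.0414). On gels 2 were higher in aged cells, against 3.8% of all genes, Cxcr5 and the Ccl3 receptor Ccr1 (2.52, adjusted p = 0.0442). The Ccr1 call rested on only 0 to 2.71 read-pair equivalents per aged gel library, so its size is uncertain. In aged cells 2 receptors fell from primary cells to gels, against 0.773% of all genes, Cx3cr1 (-6.97, adjusted p = 0.00138) and Ccrl2 (-4.62, adjusted p = 0.0171). Cx3cr1 went from 401, 389.8 and 586 scaled TPM in aged primary libraries to 49.7, 0 and 0 in aged soft and 41.4, 0 and 0 in aged stiff libraries. Both of its gel values above 0 came from broad libraries. The median receptor differed by 1.72 between the ages in primary cells, by 1.78 on gels and by -0.65 from primary cells to gels in aged cells, against 0.69, 0.71 and 0.05 for all genes. All these receptor calls were also made without the 3 broad libraries.

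**Figure D4:**
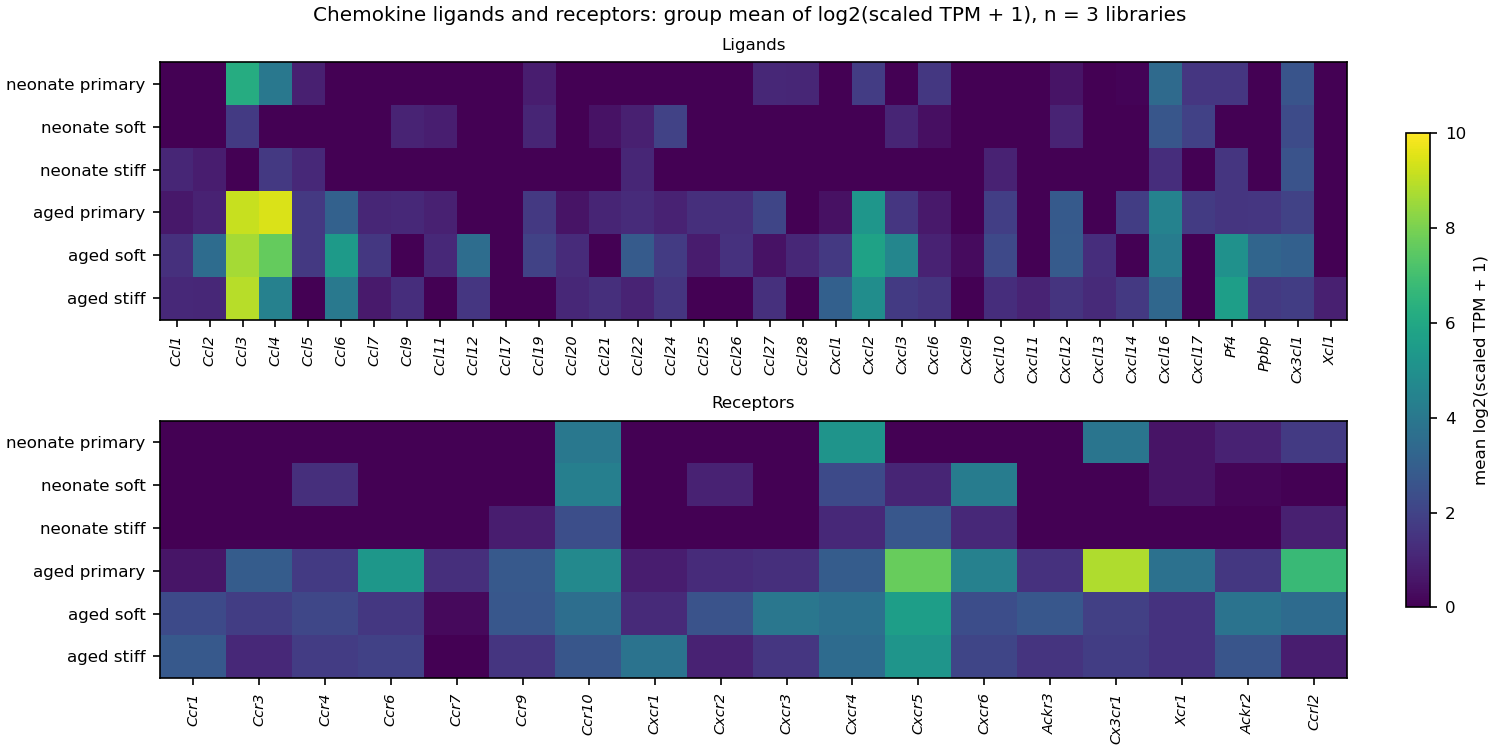
Group means of log2(scaled TPM + 1) (colour, 0 to 10, n = 3 libraries) for 36 chemokine ligands and 18 receptors in the 6 groups. Ccl3 and Ccl4 are the brightest ligands in aged primary and aged soft gel cells, Ccl3 alone stands out in aged stiff gel cells, and Cx3cr1 and Cxcr5 the brightest receptors in aged primary cells.

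Genes of inflammatory signalling, which is known to induce many of these ligands, were counted from a list of 18 measured genes. In primary cells 3 were higher in aged cells, against 1.94% of all genes, and none was lower: the NF-kB subunit Nfkb1 (4.45, adjusted p = 0.0266), the cytokine Tnf (5.20, adjusted p = 0.0348) and the pattern receptor Tlr2 (4.01, adjusted p = 0.0482). On gels 6 were higher in aged cells, against 3.8% of all genes. They were the adhesion molecule Icam1 (5.08, adjusted p = 4.5e-06), the interferon gamma receptor Ifngr1 (3.30, adjusted p = 0.00639), the cytokine Il6 (3.88, adjusted p = 0.0279), the NF-kB regulator Nfkbiz (2.79, adjusted p = 0.0284), the subunit Nfkb2 (2.81, adjusted p = 0.034) and Tlr2 (2.72, adjusted p = 0.0392). From primary cells to gels Tnf fell by 4.79 on the log2 scale in aged cells (adjusted p = 0.0416), from 56.6, 65.8 and 118 scaled TPM to 36.6 and 11.7 in 2 of 6 gel libraries and 0 in the other 4. The list's median difference was 2.50 in primary cells and 2.14 on gels, against 0.69 and 0.71 for all genes. Without the 3 broad libraries 3 of these calls were lost, Tlr2 in primary cells (adjusted p = 0.0819) and Il6 (0.0512) and Nfkb2 (0.146) on gels.

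Calls among microglia markers were counted in the same comparisons. Of 18 tested, 16 were higher in aged than in neonate primary cells (1.94% of all genes were), 8 were higher on gels (3.8% of all genes) and 6 fell in aged cells from primary cells to gels (0.773% of all genes). In neonate cells 1 fell from primary cells to gels (0.0594% of all genes), with a list median of -0.95 against 0 for all genes. Each of these calls was also made without the 3 broad libraries. P2ry12, a defining microglia marker, read 621 to 1164 scaled TPM in aged primary, 38.7 to 64.8 in neonate primary and 0 to 18.2 in aged gel libraries, and was 0 in 3 of the 6 aged gel libraries. Ccl3 was 11.4 to 14.5% of the microglia marker sum in aged primary, 20.6 to 59.2% in neonate primary and 44.6 to 99.9% in aged gel libraries. Cxcr5 was 2.95 to 9.52% of it in aged primary and 3.34 to 14.7% in aged gel libraries. The marker sum in aged gel libraries lay below that of every aged primary library, while the Ccl3 levels of these groups overlapped. Border macrophage markers (8 genes tested) had 1 called higher on gels, Pf4, and none in primary cells.

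**Figure D5:**
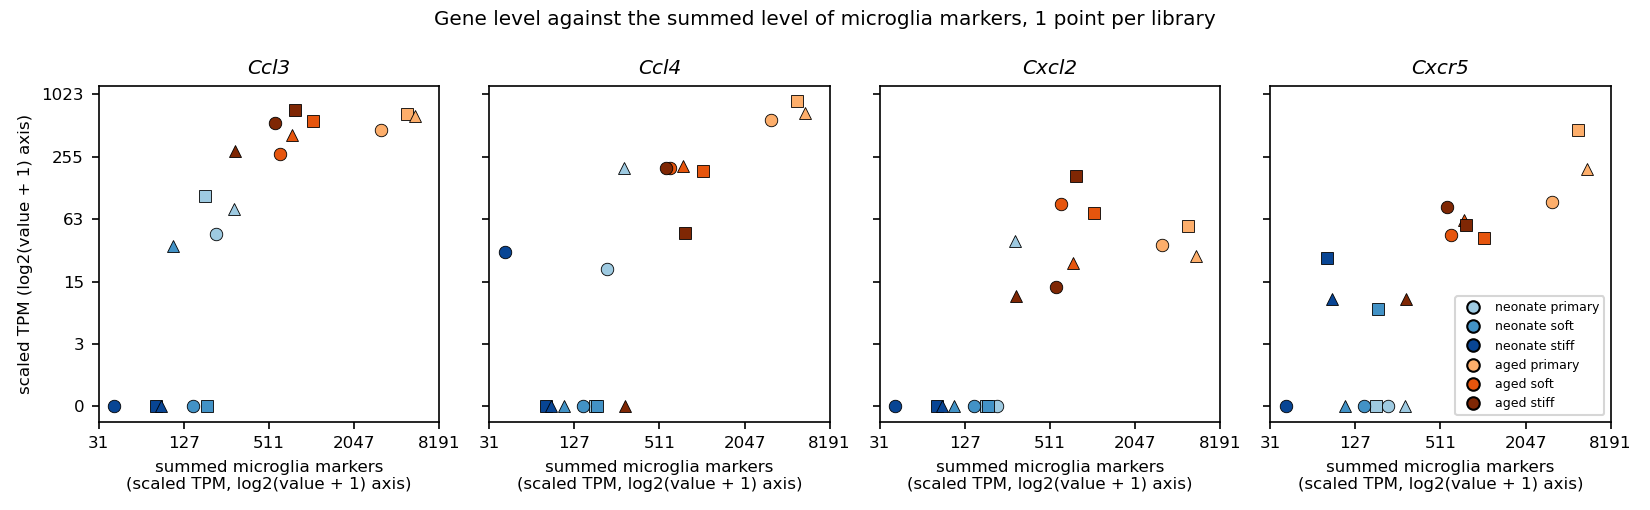
Scaled TPM of 4 genes (vertical axis) against the summed scaled TPM of 18 microglia markers (horizontal axis), both spaced as log2(value + 1), 1 point per library, with circles, squares and triangles for replicates 1, 2 and 3. Aged primary libraries lie at marker sums of 3171 to 5530 and aged gel libraries at 293 to 1047, with Ccl3 between 272 and 724 in both.

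The genes whose pattern over the 18 libraries was most like each of the 8 were taken by Pearson correlation of log2(scaled TPM + 1). These libraries share group structure and depth, so the values describe likeness only. Ccl3 was nearest to Icam1 (r = 0.98), Spi1 (0.931), the master transcription factor of myeloid cells, and Nckap1l (0.929). Icam1 read 17.9, 80.1 and 61.9 scaled TPM in aged primary, 12.3, 11.4 and 20.3 in neonate primary and 15.6 to 71.5 in aged gel libraries, and was above 0 in 1 of 6 neonate gel libraries, the same one as Ccl3. Ccl4 was nearest to the kinase gene Lyn (0.942), Ripk3 (0.937) and Tyrobp (0.911), and Cxcl2 to Cd68 (0.901), Stat6 (0.9) and Irf8 (0.892). Tyrobp and Irf8 are among the microglia markers. Cxcr5 was nearest to the interferon-induced Usp18 (0.917), Ppm1n (0.911) and the myeloid transcription factor gene Cebpa (0.908).

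For the sparsely read genes such neighbours rest on few libraries above 0. They were Serpina5 (0.972), Serpinb13 and Clec4f for Ccl2, Tmem35 (0.878), Dgke and Gp9 for Cxcl10, Sh3kbp1 (0.791), Dnase2 and Lrch4 for Cxcl16, and Trpc5 (0.8), Prelid1 and Barhl1 for Cxcr4. Among the 8 genes themselves the most alike were Ccl3 and Cxcl2 (0.818), Ccl4 and Cxcl2 (0.791) and Ccl3 and Ccl4 (0.695), and the least alike were Cxcr5 and Cxcr4 (0.0694).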

How the data were processed

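Paired-end RNA-seq libraries (18, read length 150) were made from total RNA with a stranded low-input kit, per the labels' protocols. Per the file headers, StringTie 1.3.2d quantified annotated rat transcripts of rn6 without a strand option, and the deposited values used here are TPM and coverage per transcript and coverage per exon, held as text attributes of the annotation lines. Trimmomatic, HISAT2 and Bowtie are named in the submitters' processing notes without a role. TPM was summed per gene and divided by a median-of-ratios factor over the 1644 genes detected in every library. The 15144 of 17337 genes with a TPM of 1 or more in 3 libraries or more were fitted with limma 3.58.1 (R 4.3.3, variance trend, 6 group means over 18 libraries) on log2(scaled TPM + 1), with Benjamini-Hochberg adjustment and a threshold of 0.05. Read-pair equivalents are coverage times length divided by 300 bases, since the files hold no counts, and floors of 3 pairs cover counting error only. The fit was also run on simulated libraries with changes placed only between the primary groups, in genes read more deeply than Cxcl2, Ccl2 or Cxcl10. That run did not cover the gel or interaction comparisons, and no result here relies on it. The named genes are the 8 members, each called gene of the chemokine and inflammatory lists, the 3 nearest genes by correlation per member and genes overlapping a member; Cxcl1 and Cxcl3 were added after their values were seen. A receptor gene and a marker gene of these lists are not reported here. The members and lists were chosen with earlier results of these data known. Alternatives were a pseudocount of 0.1, no filter, no scaling, voom on read-pair equivalents, the replicate block, no broad aged libraries, and each library left out.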

Additional observations from a re-analysis of the deposited data

How the results depend on the processing

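Each of the 6 called results (Cxcr5 in primary cells, Ccl3, Ccl4, Cxcl2 and Cxcr5 between the ages on gels, and Ccl3 in neonate gels against primary cells) kept its direction and stayed under the threshold in every alternative run for it; the highest adjusted p was 0.0465, for Ccl4 without the broad aged libraries. Depth limits Ccl2 and Cxcl10 most, which rest on fewer than 10 read-pair equivalents each, and Ccl2 did not pass the filter without the broad libraries.

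The numbers of genes called moved more. A pseudocount of 0.1 in place of 1 gave 160 genes in place of 394 between the ages in primary cells, 76 in place of 168 between aged gels and primary cells and 8 in place of 17 in the age by culture interaction. Voom gave, for the 8 comparisons in the order ages in primary cells, ages on gels, aged gels against primary, neonate gels against primary, aged soft against stiff, neonate soft against stiff, age by culture and age by stiffness, 977, 1748, 436, 71, 6, 6, 85 and 0 genes in place of 394, 841, 168, 15, 12, 0, 17 and 1. Without scaling, 47 genes were called in neonate gels against primary cells, 1 in aged soft against stiff and 0 in age by stiffness, and without the filter 0 in age by stiffness. Without the broad aged libraries, 117 were called in aged soft against stiff, 26 in age by culture and 6 in age by stiffness. The cause was not tested. Scaling also moved the split of higher and lower calls, from 294 and 100 to 241 and 154 without it between the ages in primary cells, from 575 and 266 to 553 and 112 on gels, from 6 and 9 to 0 and 47 in neonate gels against primary cells and from 5 and 12 to 9 and 5 in age by culture. It moved the median of all genes by -0.15, 0.12, -0.20, -0.47, -0.05, 0.25, 0.29 and -0.20 in the order above.

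Leaving out each library in turn gave, in that order, 166 to 346, 513 to 1728, 43 to 231, 3 to 18, 3 to 69, 0 to 1, 2 to 26 and 0 to 6 genes. The first 5 minima came without aged primary replicate 2, neonate soft replicate 1, aged primary replicate 2, neonate primary replicate 2 and aged soft replicate 3, and the 2 in age by culture without neonate primary replicate 2 or 3. The maxima came without aged primary replicate 1, aged stiff replicate 3, aged stiff replicate 1, neonate stiff replicate 3, aged stiff replicate 1, neonate stiff replicate 3 and, for both interactions, aged stiff replicate 3.

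Sign changes occurred only among differences that had not been called. Ccl4 in age by culture became 0.84 with the pseudocount of 0.1 and 0.13 without scaling; Cxcl2 in aged gels against primary became -0.0338 without scaling and -0.0713 with voom; with voom Cxcl10 became 0.26 there and -0.0893 in aged soft against stiff; and without the broad libraries Ccl3 became 0.0656 and Cxcl2 -0.0744 in aged soft against stiff. With single libraries left out, age by culture ran from -2.06 to 1.75 for Ccl4, -1.5 to 0.61 for Cxcl10 and -0.12 to 1.64 for Cxcl16. Aged gels against primary ran from -1.02 to 1.09 for Cxcl10, -1.61 to 0.16 for Cxcl16, -0.53 to 0.44 for Cxcl2 and -0.79 to 1.55 for Cxcr4. Aged soft against stiff ran from -0.64 to 0.0137 for Ccl3, -0.28 to 2.24 for Cxcl10, -0.84 to 2.71 for Cxcl16, -1.56 to 1.59 for Cxcr4 and -0.48 to 1.0 for Cxcr5.

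The replicate numbers were not taken to pair the libraries: deviations from group means correlated between -0.0929 and 0.233 (median 0.0125) for 45 pairs with the same number, of which 4 exceeded 0.1, and the labels name nothing shared. Within the aged groups all 9 same-number pairs were positive (0.0163 to 0.233), the 3 pairs of the broad replicate 1 libraries at 0.118 to 0.233, and 4 of 18 different-number pairs were positive. With the replicate block 428, 1056, 187, 16, 13, 0, 15 and 1 genes were called in the order above, and of the 8 genes only Ccl4 in primary cells changed its call (adjusted p = 0.0454).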

Other observations

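Some further genes, chosen after their values were seen, were above 0 in aged libraries and at 0 in the 9 neonate ones, on very few reads. Ccl12, a Ccr2 ligand close to Ccl2, was listed at 0 in all primary libraries and read 19.0, 83.4 and 0 scaled TPM in aged soft and 26.7, 0 and 0 in aged stiff libraries, on 0.763 to 2.79 read-pair equivalents each. Cxcl1 read 1.45 to 29.5 in 4 aged libraries, on 0.139 to 1.70 read-pair equivalents each. The cytokine gene Il1b was above 0 in all 3 aged primary (32.1, 5.81 and 7.37) and all 3 aged soft libraries (7.98, 12 and 5.41) and in 1 aged stiff library (8.12), on 0.775 to 4.33 read-pair equivalents each. At these depths no difference between the ages can be read from these genes.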
